A study of Sus scrofa with 6 samples.

Results

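The later part of organoid maturation was examined by setting whole porcine midbrain-like organoids (pMLOs) on day 45 (D45) against those on day 28 (D28). The comparison used the 2 libraries titled D45 and the 2 titled D28, replicates A and B of each day, out of 6 libraries in the series. In each library the unique molecular identifiers (UMIs, one per captured mRNA molecule) were summed over every cell barcode with 200 to 7000 detected genes, with no sorting into cell types. This kept 67283 cells in the 4 libraries, of 103835 that pass the same limits in all 6. Of 30477 genes in the files, 21882 had enough counts to be tested.

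All organoids came from a single line of pig embryonic stem cells, IVF_1_ pESC_FIW, made from an embryo fertilized in vitro, so that the differences between days are those of 1 line. Both days shared the same culture: SB431542 and Noggin (inhibitors of SMAD signalling), SHH-C24II (a sonic hedgehog protein) and CHIR99021 (a GSK3 inhibitor), then FGF8 with BDNF and ascorbic acid. After embedding in Matrigel on day 13, both were kept in B27 medium with BDNF, GDNF, ascorbic acid, db-cAMP and DAPT, a gamma-secretase inhibitor that blocks Notch signalling. The labels give the day of harvest as what separates the groups and name no batch, so a batch and the day cannot be told apart. The study calls its single-cell samples biological duplicates, and the labels do not say whether A and B were separate cultures, so p-values measure the spread between these libraries. In summed counts, fewer cells of a type and less RNA per cell cannot be told apart.

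In the developing midbrain, floor plate progenitors in the ventral midline, marked by FOXA2, LMX1A and CORIN, give rise to dopaminergic neurons. Neurons form first, and astrocytes and oligodendrocytes, the myelinating cells of the brain, form later from progenitors that have stopped making neurons. The comparison of D28 with D45 covers the stage at which such glial cells could appear beside the neurons, and the labels give "midbrain dopaminergic neurons" as the cell type of every sample. TH, tyrosine hydroxylase, the rate-limiting enzyme of dopamine synthesis, was seen in 4.34% and 2.99% of D28 cells and 1.88% and 3.77% of D45 cells when each cell was reduced to 1000 UMIs. It was seen in 0.178% to 0.938% of mesenchymal cells of the same libraries (at least 3 mesenchymal and under 3 pan-neuronal markers), which should lack it. These numbered 161 to 1386 per library, so the lowest shares rest on very few cells. The neuronal gene STMN2 was seen in 53.2% and 45.1% of D28 cells and 44.8% and 39.8% of D45 cells, and in 7.45% to 9.45% of the mesenchymal cells, a class defined in part by few such markers. Without the reduction TH was seen in 11.6% and 11.8% of D28 cells and 5.88% and 11.15% of D45 cells, and STMN2 in 68.4% to 74.8%. A cell in which a gene was not seen may still express it. Genes of glial, floor plate and mesenchymal cells were measured in the same sums, so the labelled cell type was not the only one present.

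The D28 libraries held 14334 and 13977 kept cells with 106896390 and 126091368 UMIs, and the D45 libraries 20338 and 18634 cells with 118813355 and 127279014 UMIs. The sums were thus of like depth, whereas the median cell held 5492 and 8084 UMIs on D28 and 2229.5 and 4213 on D45. Pairs of the 4 libraries shared between 59 and 113 cell barcodes, at most 0.636% of the smaller library. Mitochondrial genes took 1.84% to 2.37% of UMIs, and 60 ribosomal protein genes took 10.51% and 7.65% on D28 and 7.11% and 8.47% on D45. The D28 replicates differed more from each other than the D45 replicates did. Among genes with at least 50 CPM (the UMIs of a gene scaled to a common library total) in one library, 455 of 4870 (9.34%) differed over 2-fold between D28 A and D28 B, against 47 of 4795 (0.980%) between D45 A and D45 B.

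Of the 21882 genes tested with edgeR's quasi-likelihood test, 497 (2.27%) passed an adjusted p of 0.05 after Benjamini-Hochberg adjustment. Of these, 294 (1.34%) were higher and 203 (0.928%) lower on D45, and the smallest adjusted p was 0.00996. In all 497 both D45 libraries lay on one side of both D28 libraries, compared after scaling by the TMM factors. That order was common: both D45 libraries lay above both D28 libraries in 29.4% of all tested genes and below them in 28.9%. The test could resolve only large changes, since the smallest log2 fold change that passed was 1.18 in size, and 5002 genes had an unadjusted p under 0.05. An exact permutation test of 1 gene with 2 libraries against 2 cannot give a p under 0.333, so the test rests on the spread estimated over many genes. The median log2 fold change of all tested genes was -0.0034, a value that the TMM scaling sets close to 0.

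**Figure D1:**
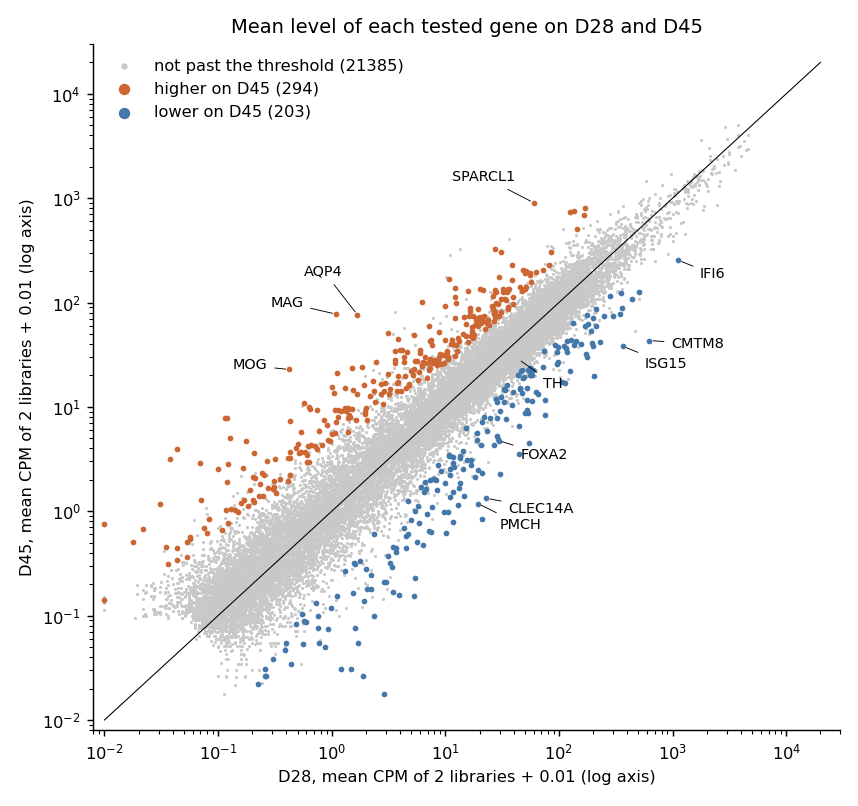
Mean CPM of each of the 21882 tested genes on D28 (horizontal log axis) and D45 (vertical log axis), each with 0.01 CPM added. Each point is a gene, orange where it was higher on D45 (294 genes), blue where lower (203) and grey where it did not pass the test. MAG, MOG and AQP4 lie far above the line of equal levels, CMTM8, ISG15 and IFI6 below it, and TH lies within the grey points.

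Among genes with a symbol that passed the test and had at least 20 CPM on D45, the rises of MAG and MOG, both genes of myelin, were the largest. Of the 12 tested genes of the myelinating oligodendrocyte list 4 rose and none fell, beside 1.34% of all tested genes that rose, and the median log2 fold change of the list was 3.65. MOG, a glycoprotein of the outer myelin surface, stood at 0.327 and 0.500 CPM in D28 A and B and at 25.7 and 19.96 CPM in D45 A and B. Both D28 libraries were close to each other and far below both D45 libraries, and the fit gave a log2 fold change of 5.67 ± 0.33 (SE), or 50.9-fold (adjusted p = 0.00996, edgeR). MOG lies at chr7:22595565-22606137 of Sscrofa11.1 in the RefSeq annotation. MAG, which holds the myelin sheath to the axon, went from 0.0935 and 2.07 CPM to 88.9 and 65.9 CPM, a log2 fold change of 6.13 ± 1.09 (adjusted p = 0.0459, edgeR). Its D28 libraries, at 10 and 261 UMIs, already differed from each other, which widened its error.

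CLDN11, the claudin of the tight junctions in myelin, went from 8.41 and 12.9 CPM to 199 and 134 CPM, a 14.4-fold rise (adjusted p = 0.0113, edgeR). It was already measurable in both D28 libraries, at levels above those of MAG and MOG there. MBP, the basic protein that compacts myelin, had 1.33 and 25.4 CPM on D28 and 383 and 268 CPM on D45. Its log2 fold change of 4.60 ± 1.13 did not pass (adjusted p = 0.0918, edgeR), since the D28 libraries differed by a wide margin. BCAS1, a gene of oligodendrocytes that are beginning to myelinate, behaved likewise, with 1.99 and 20.1 CPM on D28 and 314 and 253 CPM on D45 (log2 fold change 4.67 ± 0.92, adjusted p = 0.0552, edgeR). UGT8, which makes galactolipids of myelin, had 0.449 and 6.75 CPM on D28 and 95.2 and 66.4 CPM on D45 (adjusted p = 0.0779, edgeR). In all, 10 of the 12 genes had both D45 libraries above both D28 libraries, beside 29.4% of all tested genes.

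The genes of oligodendrocyte precursors were higher in every D45 library than in either D28 library for 8 of 8 tested members, an order seen in 29.4% of all tested genes, and 2 of the 8 rose, beside 1.34% of all. SOX10, the transcription factor of the oligodendrocyte lineage, rose from 3.41 and 10.8 CPM to 64.0 and 55.2 CPM (log2 fold change 3.00 ± 0.45, adjusted p = 0.0324, edgeR). PDGFRA, the receptor through which PDGF drives precursor division and which fibroblasts also carry, rose from 15.1 and 9.29 CPM to 63.6 and 78.0 CPM (log2 fold change 2.38 ± 0.36, adjusted p = 0.0334, edgeR). For SOX10 it was D28 B that was higher among the D28 libraries, for PDGFRA it was D28 A. OLIG1, a further lineage factor, had 1.34 and 18.8 CPM on D28 and 80.6 and 69.0 CPM on D45 without passing (adjusted p = 0.147, edgeR). LHFPL3 had 40.3 and 176 CPM on D28 and 566 and 450 CPM on D45 (adjusted p = 0.103, edgeR). The median log2 fold change of the list was 2.28.

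Of 14 tested astrocyte genes 6 rose, beside 1.34% of all tested genes, none fell, and the list had a median log2 fold change of 1.35. AQP4, the water channel of astrocyte endfeet at chr6:111407632-111422169, had 2.41 and 0.936 CPM on D28 and 64.8 and 87.5 CPM on D45. The log2 fold change was 5.33 ± 0.59 (adjusted p = 0.0209, edgeR), or 40.2-fold. GFAP, the intermediate filament of astrocytes, went from 8.51 and 4.01 CPM to 92.2 and 109 CPM (14.2-fold, adjusted p = 0.0233, edgeR). Both genes were low in both D28 libraries and differed little between the D45 libraries.

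SPARCL1, a secreted protein of astrocytes that promotes synapse formation, reached 782 and 1025 CPM on D45 from 89.5 and 30.3 CPM on D28 (13.2-fold, adjusted p = 0.0430, edgeR), the highest D45 level among the 6. MLC1, which works with AQP4 in water and ion balance, rose from 0.711 and 0.333 CPM to 4.65 and 6.79 CPM, and AGT, angiotensinogen, from 5.75 and 3.38 CPM to 25.5 and 41.6 CPM. SLC1A3, a glutamate transporter of radial glia and astrocytes, changed less, from 83.7 and 78.8 CPM to 240 and 222 CPM (log2 fold change 1.37 ± 0.25, adjusted p = 0.0495, edgeR). APOE, the lipid carrier that astrocytes secrete, had 57.9 and 14.5 CPM on D28 and 324 and 496 CPM on D45 but missed the threshold (adjusted p = 0.0752, edgeR). CLU, clusterin, went the other way in level, with 4278 and 2853 CPM on D28 and 1872 and 1812 CPM on D45 (adjusted p = 0.218, edgeR), and was the only member with both D45 libraries below both D28 libraries.

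**Figure D2:**
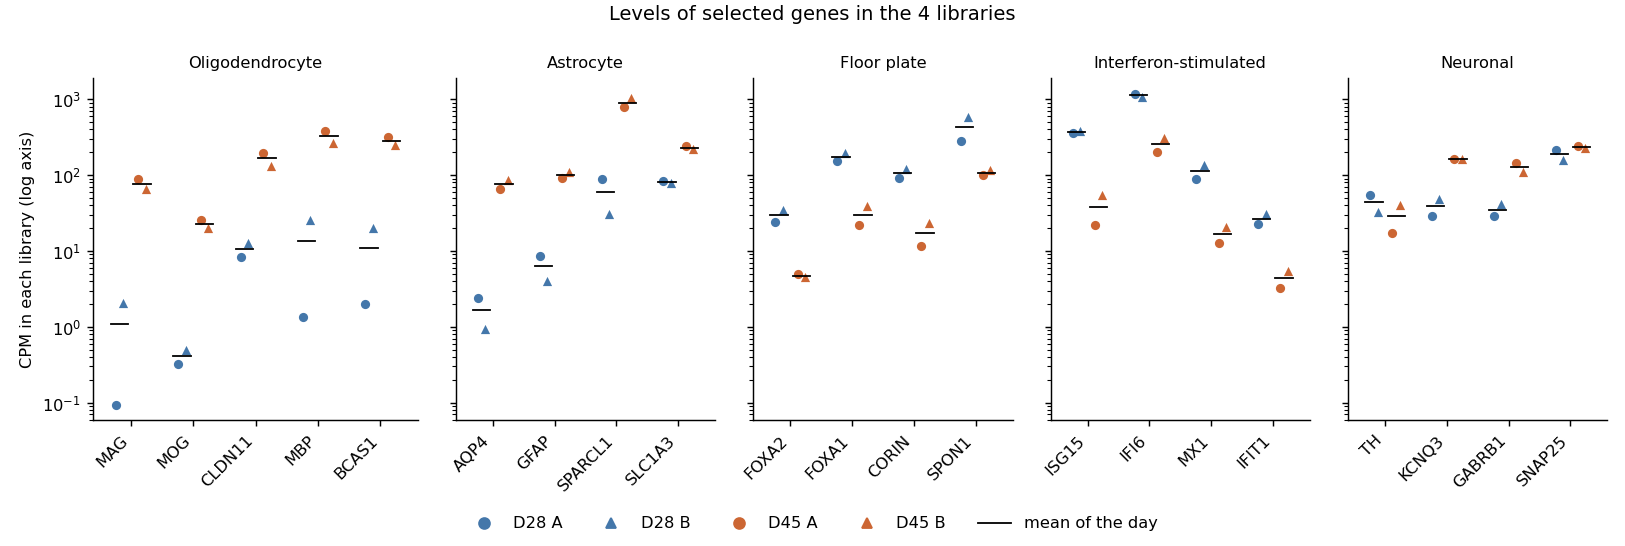
CPM (log axis) of 21 genes in each of the 4 libraries, circles for replicate A and triangles for replicate B, blue for D28 and orange for D45, with a black bar at the mean of each day. The oligodendrocyte and astrocyte genes lie higher on D45, the floor plate and interferon-stimulated genes lower, and TH overlaps between days. SNAP25 lies slightly higher on D45 in these unscaled values, and its days overlap after scaling by the TMM factors. The D28 replicates of MAG and MBP lie far apart.

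Genes of neural progenitors moved in both directions, with 2 of 10 tested members higher and 2 lower, beside 1.34% and 0.928% of all tested genes. PAX6, a transcription factor of dorsal and forebrain progenitors that some neurons and astrocytes keep, went from 0.636 and 3.07 CPM to 17.5 and 30.4 CPM (log2 fold change 3.66 ± 0.67, adjusted p = 0.0484, edgeR). TNC, tenascin C, a matrix protein of radial glia and astrocytes, went from 22.3 and 20.8 CPM to 120 and 143 CPM (5.57-fold, adjusted p = 0.0192, edgeR). NES, nestin, the intermediate filament of early progenitors, fell from 154 and 268 CPM to 52.1 and 67.9 CPM (3.73-fold, adjusted p = 0.0358, edgeR). HES1, a Notch target that holds cells in the progenitor state, fell from 139 and 91.3 CPM to 34.1 and 38.4 CPM (3.54-fold, adjusted p = 0.0484, edgeR). PTPRZ1, a phosphatase of outer radial glia and oligodendrocyte precursors, had 91.9 and 236 CPM on D28 and 693 and 685 CPM on D45 (adjusted p = 0.0610, edgeR). HES1 was also the only one of 11 tested Notch and proneural genes to pass. DESeq2 called 2 of them higher and 3 lower, beside 1195 and 1222 of all 21882 tested genes. None of 12 cell cycle genes passed, and 10 of them had a negative log2 fold change, with a median of -0.46. UBE2C, which tags mitotic cyclins for destruction, had the most negative value, with 76.4 and 26.8 CPM on D28 and 16.5 and 21.8 CPM on D45 (log2 fold change -1.63, adjusted p = 0.155, edgeR). TOP2A, the topoisomerase of dividing cells, had 65.3 and 64.7 CPM on D28 and 67.0 and 75.2 CPM on D45. The median of the cell cycle list was 0.07 without D28 A and -0.78 without D28 B, so its sign rested on D28 A. DESeq2 called 3 cell cycle genes lower, beside 1222 of all 21882 tested genes.

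Of 17 tested floor plate and ventral midbrain genes 6 fell on D45 and none rose, beside 0.928% of all tested genes that fell, and the list had a median log2 fold change of -1.62. FOXA2, the forkhead factor that specifies the floor plate, lies at chr17:29997397-30001704 and had 24.4 and 34.4 CPM on D28 and 4.92 and 4.56 CPM on D45. The D45 libraries were nearly equal, and the fall was 6.69-fold (log2 fold change -2.74 ± 0.25, adjusted p = 0.0136, edgeR). FOXA1, its close relative, fell from 155 and 195 CPM to 21.7 and 38.7 CPM, and CORIN, a surface protease used to sort floor plate cells, from 92.7 and 122 CPM to 11.7 and 23.1 CPM. SPON1, F-spondin, an axon guidance protein secreted by the floor plate, fell from 284 and 589 CPM to 98.9 and 117 CPM (4.27-fold). Another member that fell was FERD3L, a basic helix-loop-helix factor of the floor plate, with 12.3 and 16.1 against 1.51 and 3.57 CPM.

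In 13 of the 17 genes both D45 libraries lay below both D28 libraries, as in 28.9% of all tested genes. LMX1A, which directs floor plate cells to the dopaminergic fate, had 114 and 70.24 CPM on D28 and 24.2 and 42.3 CPM on D45 without passing (adjusted p = 0.1001, edgeR). EN1, a midbrain position factor that dopaminergic neurons keep, had 54.0 and 31.1 CPM on D28 and 6.25 and 20.2 CPM on D45 (adjusted p = 0.150, edgeR). WNT5A, a ligand of the ventral midbrain, lay just outside the threshold, with 38.1 and 34.6 CPM on D28 and 9.52 and 14.9 CPM on D45 (adjusted p = 0.0503, edgeR). MSX1 was the single member with both D45 libraries above, at 2.69 and 2.03 against 4.42 and 6.25 CPM (adjusted p = 0.195, edgeR). For FOXA1, CORIN, LMX1A and EN1, D45 A was the lower of the D45 libraries.

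No dopaminergic gene passed in the comparison of all 4 libraries. Of 13 tested members, 9 had overlapping days. Both D45 libraries lay above both D28 libraries in 2 and below them in 2, beside 29.4% and 28.9% of all tested genes. The median log2 fold change was -0.56. This median depended on single libraries: it was -0.03 without D28 A, -0.96 without D28 B, -0.28 without D45 A and -0.82 without D45 B. DESeq2 called 1 member higher, beside 1195 of all 21882 tested genes. TH had 55.1 and 32.5 CPM on D28 and 17.1 and 40.4 CPM on D45, so that D45 B lay between the D28 libraries (log2 fold change -0.76 ± 0.50, adjusted p = 0.390, edgeR). DDC, the enzyme after TH in dopamine synthesis, had 64.2 and 70.7 CPM on D28 and 17.2 and 48.2 CPM on D45 (adjusted p = 0.207, edgeR). NR4A2, a transcription factor that these neurons need for maturation, had 79.2 and 50.1 CPM on D28 and 42.3 and 55.4 CPM on D45 (adjusted p = 0.366, edgeR). SLC18A2, which loads dopamine into vesicles, stayed between 4.17 and 6.83 CPM in the 4 libraries. DRD2, the dopamine receptor that also acts as autoreceptor on these neurons, had the smallest adjusted p of the list (0.0727, edgeR), with 5.73 and 6.35 CPM on D28 and 13.97 and 19.6 CPM on D45. A change of TH was thus not detectable at this spread.

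The interferon-stimulated genes were the list with the largest share of members that changed. These genes are switched on when cells sense type I interferon, and their products restrict viral replication. Their promoters often hold the interferon-stimulated response element, whose core reads GAAANNGAAA. That core was searched on both strands in the 300 bases before the RefSeq start of each gene in Sscrofa11.1. It was found before 5 of the 11 tested members (45.5%), against 434 of 13269 tested genes with such a start (3.27%). The stretches of 100 bases around it are shown for 4 members that fell, 5′ to 3′ on the strand of the gene, with each match to the core or its reverse complement in capitals. The other 4 members that fell, MX1, MX2, IFIT1 and IFIT2, had no match in this window, and the fifth match lay before OAS2, which did not pass the test. The share of matches thus describes a list of known interferon-stimulated genes, and a link of the core to the fall was not tested. Overlapping matches run together in ISG15.
ISG15, chr6:63363033-63363132, plus strand: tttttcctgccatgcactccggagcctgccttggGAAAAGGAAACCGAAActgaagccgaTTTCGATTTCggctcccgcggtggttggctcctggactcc
IFI6, chr6:84858073-84858172, minus strand: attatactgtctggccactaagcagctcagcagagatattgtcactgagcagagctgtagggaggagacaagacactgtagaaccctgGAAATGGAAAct
ISG12(A), chr7:115356458-115356557, plus strand: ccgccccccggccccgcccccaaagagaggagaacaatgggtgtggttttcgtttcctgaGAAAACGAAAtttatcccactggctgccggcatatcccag
RSAD2, chr3:128897900-128897999, minus strand: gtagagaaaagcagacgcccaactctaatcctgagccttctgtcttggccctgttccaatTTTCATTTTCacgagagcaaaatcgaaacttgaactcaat

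Of the 11 tested interferon-stimulated genes 8 fell, beside 0.928% of all tested genes, and in all 11 both D45 libraries lay below both D28 libraries, which held for 28.9% of all tested genes. For OAS2, an activator of RNA decay, this order rests on the TMM scaling, since its CPM overlapped, at 6.79 and 9.25 on D28 and 7.91 and 7.59 on D45 (adjusted p = 0.746, edgeR). The median log2 fold change was -2.72. ISG15, a ubiquitin-like protein that is joined to other proteins, had 357 and 377 CPM on D28 and 21.7 and 54.3 CPM on D45 (10.4-fold lower, log2 fold change -3.38 ± 0.49, adjusted p = 0.0295, edgeR). The D28 libraries were nearly equal, and D45 A was the lowest. IFI6, a mitochondrial survival protein and the most abundant member, had 1174 and 1072 CPM on D28 and 199 and 310 CPM on D45 (4.83-fold lower, adjusted p = 0.0432, edgeR). MX1, a dynamin-like GTPase that traps viral nucleocapsids, went from 89.4 and 135 CPM to 12.7 and 20.8 CPM (7.14-fold lower, adjusted p = 0.0209, edgeR).

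ISG12(A), a small membrane protein of the same family as IFI6, fell from 159 and 187 CPM to 23.5 and 41.2 CPM, and its reads may be shared with near-identical copies of the family. IFIT1, which binds foreign RNA caps, fell from 23.0 and 30.5 CPM to 3.27 and 5.44 CPM (adjusted p = 0.0233, edgeR). MX2 fell from 4.78 and 8.95 CPM to 0.909 and 0.951 CPM, and IFIT2 from 13.6 and 9.91 CPM to 1.10 and 1.96 CPM. RSAD2, viperin, had 138 UMIs in each D28 library and 4 and 1 in the D45 libraries (adjusted p = 0.0209, edgeR). IRF7, an upstream member that amplifies interferon production, had 18.9 and 14.4 CPM on D28 and 5.91 and 7.83 CPM on D45 without passing (adjusted p = 0.0841, edgeR). EPSTI1, an interferon-induced gene outside the list, was among the 12 largest falls of genes that passed, with a symbol, days that do not overlap and at least 20 CPM on D28, from 39.9 and 48.9 CPM to 2.22 and 4.82 CPM (13.5-fold, adjusted p = 0.0209, edgeR). The chemokine CXCL10, itself induced by interferon, had 490 and 145 UMIs on D28, none in D45 A, which allows a level of up to 0.0252 CPM there by counting error alone, and 2 UMIs in D45 B.

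No general neuronal gene passed, in a test that resolved only changes of over 2-fold. None of 13 pan-neuronal genes and none of 15 genes of synaptic vesicles and release passed, with median log2 fold changes of -0.06 and 0.01. These medians were -0.36 and 0.05 without D28 B, and -0.16 and 0.21 without D28 A. DESeq2 called 2 pan-neuronal genes lower, beside 1222 of all 21882 tested genes. Of the pan-neuronal genes 5 had both D45 libraries below both D28 libraries and 1 had both above, beside 28.9% and 29.4% of all tested genes. GAP43, a protein of growing axons, had the most negative value, with 860 and 657 CPM on D28 and 364 and 437 CPM on D45 (log2 fold change -1.07, adjusted p = 0.155, edgeR). TUBB3, the neuronal tubulin, had 722 and 319 CPM on D28 and 260 and 309 CPM on D45 (log2 fold change -1.05, adjusted p = 0.250, edgeR). STMN2, a microtubule regulator of young neurons, had 1700 and 1045 CPM on D28 and 865 and 908 CPM on D45. SNAP25, a protein of the vesicle fusion complex, had 216 and 159 CPM on D28 and 246 and 228 CPM on D45. Both genes were abundant in all 4 libraries, and their adjusted p values were 0.310 and 0.748 (edgeR).

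Of 18 sodium, calcium and potassium channel genes 1 rose, beside 1.34% of all tested genes. In 14 of them both D45 libraries lay above both D28 libraries, an order seen in 29.4% of all tested genes. The gene that rose was KCNQ3, a subunit of the M-type potassium current that limits repetitive firing, with 28.8 and 48.9 CPM on D28 and 164 CPM in each D45 library (3.94-fold higher, adjusted p = 0.0266, edgeR). KCNC2, a channel of fast-spiking neurons, had 16.4 and 15.5 CPM on D28 and 43.5 and 36.1 CPM on D45 and narrowly missed (adjusted p = 0.0598, edgeR). SCN2A, a sodium channel of the axon, overlapped between days, with 24.9 and 43.6 against 46.1 and 40.1 CPM. DESeq2 called 6 of the 18 channel genes higher and none lower, beside 1195 and 1222 of all 21882 tested genes. Of 15 GABA and glutamate receptor genes 2 rose, beside 1.34% of all. GABRB1, a GABA-A receptor subunit, went from 28.9 and 41.5 CPM to 145 and 109 CPM (3.34-fold, adjusted p = 0.0281, edgeR), and GRM5, a metabotropic glutamate receptor that neurons and young astrocytes carry, from 48.7 and 62.5 CPM to 248 and 138 CPM (3.19-fold, adjusted p = 0.0495, edgeR).

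**Figure D3:**
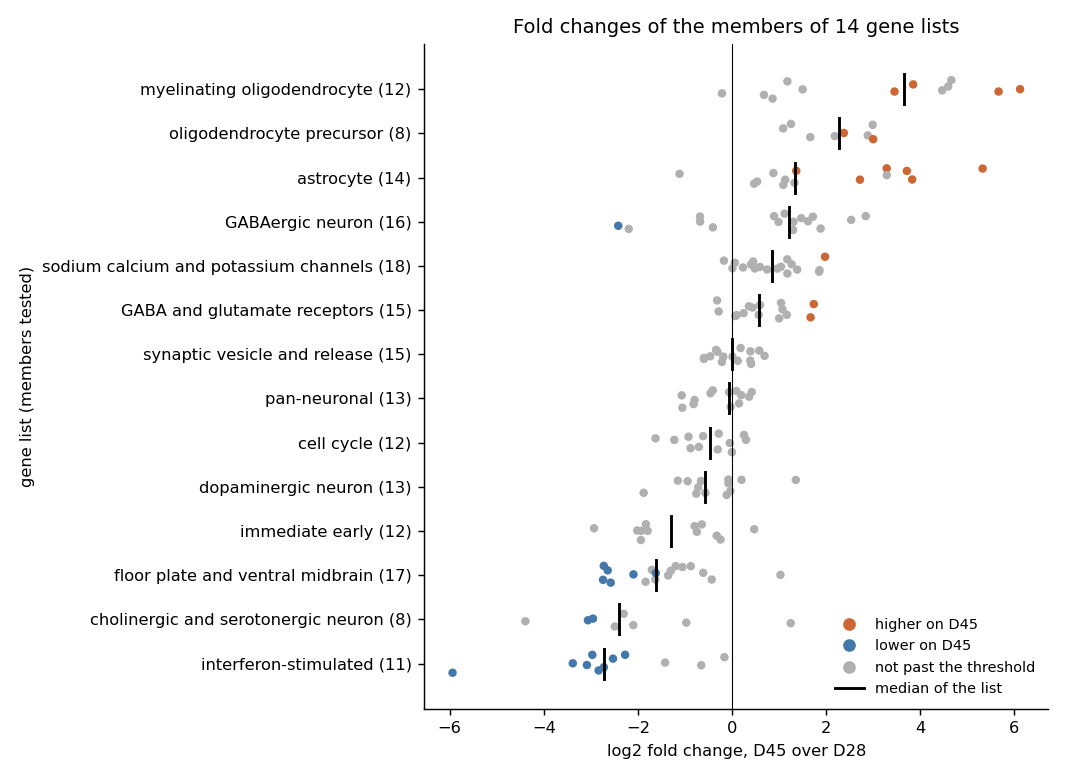
Log2 fold change, D45 over D28, of the tested members of 14 gene lists, with the number of members in brackets; each point is a gene, orange where it rose, blue where it fell and grey where it did not pass, and the black bar is the median of the list. The medians run from 3.65 for myelinating oligodendrocytes to -2.72 for interferon-stimulated genes, and those of the pan-neuronal and synaptic lists lie next to 0.

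Among genes of transmitter identity, those of GABA synthesis differed between the D28 libraries. GAD1, which makes GABA, had 0.889 and 9.84 CPM on D28 and 49.9 and 28.4 CPM on D45 (adjusted p = 0.137, edgeR), and GAD2, the second GABA-making enzyme, 3.67 and 45.7 CPM on D28 and 101 and 63.3 CPM on D45 (adjusted p = 0.293, edgeR). D28 A was the low library for both, as it was for DLX1, a factor of forebrain GABAergic neurons, at 1.78 CPM against 19.4 CPM in D28 B, 35.1 CPM in D45 A and 24.5 CPM in D45 B. Of 16 GABAergic genes 10 had both D45 libraries above, beside 29.4% of all tested genes, and 1 fell, beside 0.928% of all. That gene was LHX1, a factor of midbrain and hindbrain neurons, which fell from 10.2 and 11.8 CPM to 1.68 and 2.76 CPM (adjusted p = 0.0325, edgeR). DESeq2 called 4 GABAergic genes higher and 2 lower, beside 1195 and 1222 of all 21882 tested genes. None of 11 glutamatergic genes passed in edgeR with all 4 libraries, whereas DESeq2 called 2 of them higher and 3 lower. The median log2 fold change of the glutamatergic list was -0.95, against 0.15 without D28 B and -0.76 without D28 A. SLC17A6, the vesicular glutamate transporter of the brainstem and diencephalon, had 66.0 and 72.4 CPM on D28 and 36.7 and 41.4 CPM on D45 (adjusted p = 0.0808, edgeR). Of 8 cholinergic and serotonergic genes 2 fell, beside 0.928% of all. One was CHAT, which makes acetylcholine, with 55 and 76 UMIs on D28 and 13 and 6 on D45 (adjusted p = 0.0469, edgeR).

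Fibroblast genes differed more between replicates than between days. None of 13 tested mesenchymal genes passed, and their summed level was 1737 and 718 CPM in D28 A and B and 1219 and 3147 CPM in D45 A and B. LUM, lumican, a collagen-binding proteoglycan, had the largest fold between D28 replicates among named genes with at least 50 CPM in one of them, at 232 CPM in D28 A and 11.9 CPM in D28 B. DCN, decorin, followed the same order with 229 and 24.03 CPM. COL1A1, the main fibrillar collagen, was low in D28 B at 33.0 CPM against 209 CPM in D28 A, 177 CPM in D45 A and 563 CPM in D45 B. Genes of muscle-lined vessels, endothelium, choroid plexus and epithelium likewise gave no call among 8, 8, 7 and 6 tested members. Their median log2 fold changes were -0.71, -0.002, -0.38 and 0.10. Without D28 B they were -0.81, 0.05, -0.60 and 0.02, and without D28 A -0.13, 0.02, 0.19 and 0.17. Of 7 microglia and macrophage genes 1 fell, beside 0.928% of all tested genes. This was C1QA, a complement component, which went from 113 and 96 UMIs to 3 and 13, with AIF1 at 0.666 to 1.25 CPM throughout.

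**Figure D4:**
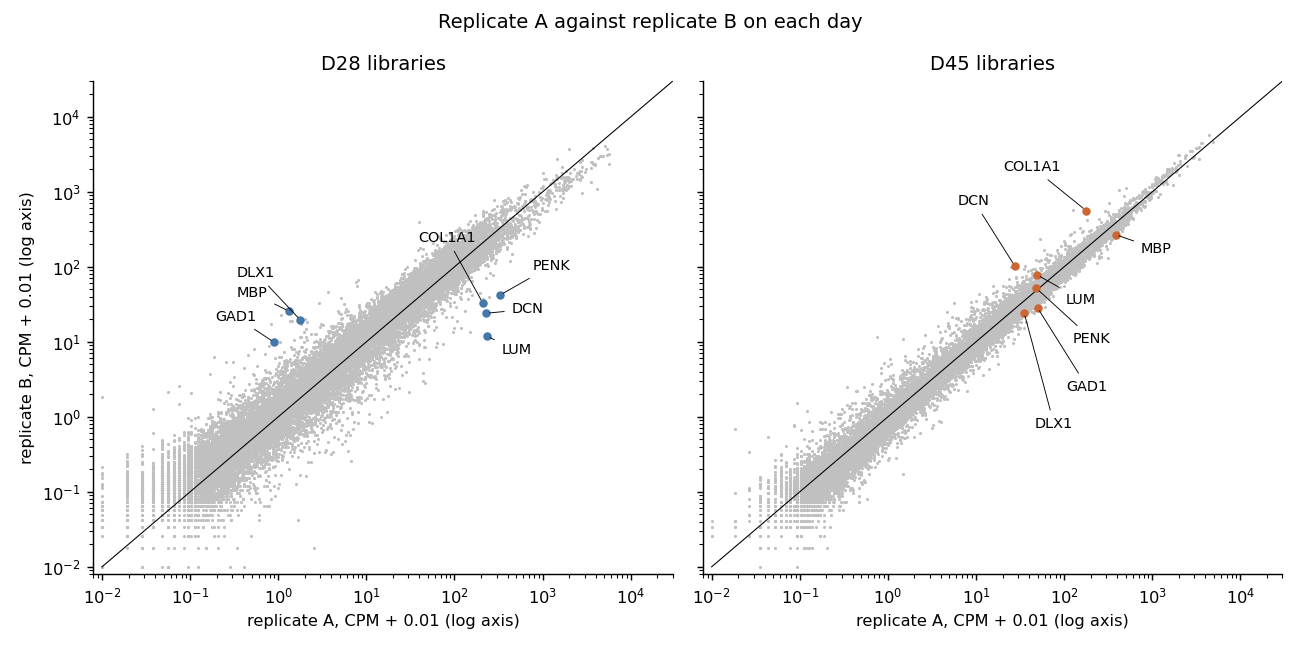
CPM of each tested gene in replicate A (horizontal log axis) and replicate B (vertical log axis), with 0.01 CPM added, for D28 on the left and D45 on the right; the line marks equal levels and coloured points are named genes. On D28 the cloud is wide, with LUM, DCN, COL1A1 and PENK high in A and MBP, GAD1 and DLX1 high in B, and on D45 it is narrow.

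Of 23 neuropeptide and granin genes 1 rose and 2 fell, beside 1.34% and 0.928% of all tested genes. PMCH, the precursor of melanin-concentrating hormone of the lateral hypothalamus, fell from 16.04 and 22.9 CPM to 1.49 and 0.856 CPM (17.97-fold, adjusted p = 0.0136, edgeR). CHGB, a granin of secretory granules, fell from 163 and 108 CPM to 33.7 and 44.7 CPM (3.85-fold, adjusted p = 0.0484, edgeR), while its relative SCG2 had 492 and 567 CPM on D28 and 914 and 956 CPM on D45 without passing (adjusted p = 0.231, edgeR). GAL, galanin, rose from 1.66 and 4.62 CPM to 22.5 and 18.6 CPM (6.22-fold, adjusted p = 0.0379, edgeR). PENK, the enkephalin precursor, stood apart in D28 A alone, with 327 CPM there, 41.9 CPM in D28 B and 48.5 and 51.5 CPM on D45.

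Among the 12 largest rises and 12 largest falls of genes that passed the test, with a symbol, days that do not overlap and at least 20 CPM on the higher day were several outside these groups. CMTM8, a membrane protein of the chemokine-like factor family, fell from 661 and 592 CPM to 32.3 and 54.1 CPM (15.9-fold, adjusted p = 0.0187, edgeR), and both D28 replicates were close. CLEC14A, a lectin known from endothelium, fell from 29.3 and 16.7 CPM to 1.00 and 1.64 CPM (19.4-fold, adjusted p = 0.0209, edgeR), while the endothelial markers PECAM1, CDH5 and VWF did not pass and CDH5 stayed at or under 0.295 CPM. SIDT1, which transports double-stranded RNA, fell from 167 and 235 CPM to 18.5 and 21.3 CPM (10.9-fold, adjusted p = 0.0113, edgeR). Among the rises were DCT, a melanin-synthesis enzyme also found in neural progenitors, from 2.58 and 3.60 CPM to 59.0 and 42.7 CPM (15.2-fold, adjusted p = 0.00996, edgeR), and FBXO32, a ubiquitin ligase subunit, from 9.34 and 15.2 CPM to 139 and 140 CPM (10.6-fold, adjusted p = 0.0113, edgeR). Outside these largest changes, PDE3A, a phosphodiesterase that breaks down cyclic AMP, rose from 200 and 143 CPM to 750 and 857 CPM (4.22-fold, adjusted p = 0.0460, edgeR).

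A few members passed in several other lists, beside 1.34% of all tested genes that rose and 0.928% that fell. RAX, a factor of retina and hypothalamus, was counted 1 and 4 times on D28 and 93 and 198 times on D45, the only 1 of 10 forebrain and diencephalic genes to pass. WNT7A, a ligand that acts on brain vessels and oligodendrocyte precursors, rose from 3.55 and 4.61 CPM to 14.7 and 13.4 CPM, 1 of 19 hedgehog and WNT genes. ACAN, aggrecan, a proteoglycan of cartilage and of perineuronal nets, rose from 0.355 and 1.63 CPM to 18.8 and 12.1 CPM, with the cartilage collagen COL2A1 at 7.15 to 11.5 CPM in the 4 libraries. Of 7 neural crest and Schwann cell genes 2 rose, SOX10 and FOXD3, and 1 fell. FOXD3, an early neural crest factor, had 3 and 5 UMIs on D28 and 43 and 64 on D45. ADM, adrenomedullin, rose from 12.96 and 19.0 CPM to 45.1 and 37.8 CPM, 1 of 13 hypoxia and glycolysis genes. No member of the hindbrain, heat shock, immediate early, cholesterol synthesis, developmental timing or mitochondrial lists passed, although 11 of 12 immediate early genes had a negative log2 fold change and FOS stood at 255 CPM in D28 A against 83.1 CPM in D28 B and 50.1 and 51.5 CPM on D45. The median log2 fold change of the immediate early list was -1.89 without D28 B and -0.44 without D28 A. That of cholesterol synthesis was -0.52 without D28 B and 0.51 without D28 A, and that of the hindbrain list -1.085 and -0.29. DESeq2 called 5 immediate early genes lower, beside 1222 of all 21882 tested genes.

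To see how many cells carried such genes, each cell with at least 1000 UMIs was reduced to 1000, which left out 4392 and 1943 cells on D28 and 6747 and 4965 on D45. MBP was then seen in 0.111% and 0.889% of D28 cells and in 7.75% and 6.62% of D45 cells. The exact Clopper-Pearson 95% intervals, which cover counting error only, were 7.30% to 8.21% in D45 A and 6.21% to 7.05% in D45 B, against 0.0552% to 0.198% in D28 A and 0.729% to 1.07% in D28 B. In cells with at least 3 pan-neuronal and under 3 mesenchymal markers, taken as a neuronal class, it was seen in 0.138% and 0.586% on D28 and 4.29% and 3.57% on D45. On D45 the class also held SOX10 in 2.60% and 2.19% of cells, so it is no clean background for glial genes. The share of all D45 cells with MBP exceeded that of this class, while the share in D28 A did not. AQP4 was seen in 0.161% and 0.0748% of D28 cells and 3.78% and 4.76% of D45 cells, beside 0.0394% and 0.0617% in the neuronal cells of D28 and 2.84% and 3.30% in those of D45. The mesenchymal classes held 1058 and 161 cells on D28 and 561 and 1386 on D45, so their small shares rest on very few cells. FOXA2 was seen in 2.21% and 2.49% of D28 cells and 0.405% and 0.322% of D45 cells, beside 0.567% and 1.24% of mesenchymal cells on D28 and 0.178% and 0.0722% on D45. Its intervals were 1.93% to 2.52% and 2.22% to 2.79% on D28, and 0.305% to 0.526% and 0.234% to 0.432% on D45. CORIN, seen in 0.861% and 1.46% of D45 cells, was seen more often in the mesenchymal cells of that day, at 2.32% and 6.13%, so that mesenchymal cells are no background for CORIN. Without the reduction MBP was seen in 0.893% and 2.75% of D28 cells and 12.7% and 13.8% of D45 cells. These shares are descriptions, since cells of one library are not replicates.

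**Figure D5:**
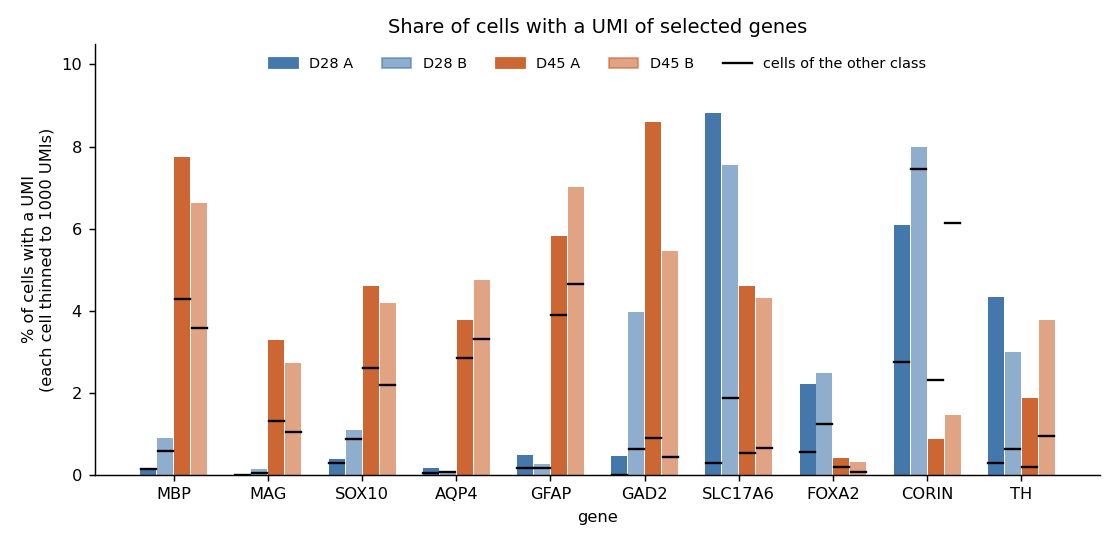
Percent of cells with at least 1 UMI of each of 10 genes after each cell was reduced to 1000 UMIs. Bars are blue for D28 and orange for D45, darker for replicate A and paler for B. A black bar marks the percent in a comparison class, neuronal cells for MBP to GFAP and mesenchymal cells for GAD2 to TH. These classes are no clean background for MBP to GFAP or for CORIN. MBP, MAG, SOX10, AQP4 and GFAP stand higher on D45, FOXA2 and SLC17A6 lower, and GAD2 is low in D28 A only.

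Which genes passed depended in part on single libraries. A fit without 1 library takes the spread of the lone library from the other day. Its calls rest on that assumption, so list medians are given first. When each library was left out in turn, the median log2 fold change of the interferon-stimulated list ranged from -3.05 to -2.37. That of the floor plate list ranged from -2.115 to -1.20, of the astrocyte list from 1.404 to 2.135 and of the myelin list from 3.41 to 3.86. The oligodendrocyte precursor median ranged from 1.83 to 2.81 and the channel median from 0.693 to 0.943. The GABAergic median ranged from 0.39, without D28 A, to 1.92, without D28 B. The mesenchymal median ranged from 0.10, without D45 B, to 2.07, without D28 A. For the progenitor list the range was 0.32 to 0.53 and for the receptor list 0.44 to 0.69. For cholinergic and serotonergic genes it was -2.955, without D28 A, to -1.03, without D28 B. DESeq2 called 6 of these lower, beside 1222 of all 21882 tested genes. The neuropeptide median ranged from -1.205, without D45 B, to 0.256, without D28 A. The forebrain median ranged from 0.47, without D28 A, to 1.87, without D28 B. That of neural crest genes ranged from -0.27, without D45 B, to 1.375, without D28 A. The Notch median ranged from -0.367 to 0.003 and the hedgehog and WNT median from -0.28 to 0.25. For the hypoxia list the range was -0.356 to -0.02, for cartilage and muscle -0.57 to -0.31 and for microglia -0.62 to -0.30. Without D45 A, NES, SPON1, SLC1A3, LHX1, ADM, GRM5, HES1, IFI6, WNT7A, DNAI1 and CHGB no longer passed, and without D45 B this held for CHAT, SPON1, ADM, SLC1A3, PDE3A, FOXD3, IFI6 and WNT7A. No named gene that passed changed direction in any of the 15 alternatives that tested it. This was largely fixed in advance, since in each such gene both D45 libraries lay on one side of both D28 libraries.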

How the data were processed

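Libraries were made by the study with the 10x Genomics GEM-X 3' chemistry from dissociated pMLOs, with 2 libraries per day. The authors aligned reads to Sscrofa11.1 with Cell Ranger 8.0.1 and deposited UMI counts per gene and barcode, without normalization. They name Seurat 4.3.0 for later steps, whose cell labels were not used here. Of 30477 genes, 16266 were named in the files and 844 through the reference, and 13367 kept their Ensembl number. Coordinates were matched to RefSeq by Ensembl number where it was paired there, and otherwise by a gene symbol that occurs once.

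Counts were summed per library over barcodes with 200 to 7000 detected genes. Near-identical copies, such as those of the ISG12 family, may share reads. Doublets were not called, and remain in the sums. Sums were compared with edgeR 4.0.16 in R 4.3.3 (genes kept by filterByExpr, TMM scaling, its quasi-likelihood test, adjustment over all genes by Benjamini-Hochberg, threshold 0.05). CPM values are not TMM-scaled, whereas fold changes are. The test was tested on simulated data. Alternatives were DESeq2 1.42.0, its size factors, no filter on low counts, all 6 libraries, the replicate letter as block, a limit of 10% mitochondrial UMIs (37 genes), no filter on cells, cells reduced to 1000 or 500 UMIs, libraries reduced to the smallest total, mitochondrial genes left out and each library left out. Intervals and limits from counts cover counting error only.

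The comparison and the gene lists were chosen with earlier results of these data known. Genes named are list members, the 12 largest rises and 12 largest falls that passed the test, with a symbol, at least 20 CPM and days that do not overlap, genes the paper names, and the 10 genes per day that differ most between replicates at 50 CPM or more. Other genes are said to be chosen after their values were seen. Of 461 list genes, 401 were tested, and some are counted but not reported here by name.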

Additional observations from a re-analysis of the deposited data

How the results depend on the processing

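Main counts were 497 genes in all, 294 higher and 203 lower, with 47 list members. In the same order, DESeq2 gave 2417, 1195, 1222 and 127, the fit with all 6 libraries 2097, 1000, 1097 and 95, and no filter on low counts 253, 142, 111 and 24. Cells reduced to 1000 UMIs gave 330 genes, 127 of them lower. Leaving out 1 library gave 567 to 7115 genes, 320 to 3202 higher, 192 to 3913 lower and 63 to 195 list members. The totals were those without D28 B (7115), D28 A (1774), D45 A (567) and D45 B (601), where the lone library is assumed to vary like the other day. Of the 497 genes, 490 were also called by DESeq2, 496 with all 6 libraries, 284 with reduced cells, 306 without D45 A and 344 without D45 B. DESeq2's size factors, the mitochondrial limit, no filter on cells, libraries of equal total and no mitochondrial genes moved no count by over 1.5 times. Of 51 named genes that passed, 51 kept their direction in each of 15 alternatives that tested them, and 26 also their call, while 46 were tested with reduced cells. The kept direction was largely fixed in advance by the order of the libraries in these genes. No filter on low counts lost the call of 23 of them, the most of any setting.

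With the replicate letter as block, 1544 genes passed, 892 higher and 652 lower, with 113 list members. The labels do not say whether a letter marks the same culture or run on different days. Deviations of A from B correlated at -0.204 between D28 and D45. The crossed pairing, chosen after seeing the data, gave 3919 genes, 2011 higher and 1908 lower, with 177 list members. The cause of these differences was not tested.

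At 500 instead of 1000 UMIs per cell, the mean share of D45 cells with MBP was 4.97% instead of 7.18%, and with AQP4 2.97% instead of 4.27%, with the same order of days.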

Other observations

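Some genes outside the groups described, chosen after their values were seen, also passed the same edgeR test. Several are known from cells with many motile cilia, although the chosen list of ciliated ependymal genes had 1 of 9 tested members higher, DNAI1, beside 1.34% of all tested genes. The median log2 fold change of the list was 0.59, and from 0.35, without D45 A, to 0.79, without D45 B, when 1 library was left out. MCIDAS, which starts the multiciliated programme, had 18 and 21 UMIs on D28 and 647 and 501 on D45. CCNO, needed to multiply the basal bodies, had 2 and 6 UMIs on D28 and 627 and 331 on D45, and TP73, an upstream factor, 23 and 32 against 340 and 225. CDC20B, a gene of multiciliated cells next to MCIDAS and CCNO on chromosome 16, rose from 0.608 and 1.59 CPM to 26.02 and 16.3 CPM. DNAI1 and DNAH5, dynein proteins of the cilium, rose from 2.62 and 4.89 CPM to 20.7 and 13.2 CPM and from 5.62 and 7.15 CPM to 32.0 and 22.3 CPM. FOXJ1, the general factor of motile cilia, did not pass, with 11.7 and 10.55 CPM on D28 and 19.3 and 13.6 CPM on D45.

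The interferon-stimulated genes were also low on D11, so that D28 was the highest of the 3 days. The summed level of the 11 list members was 75.8 and 69.0 CPM on D11, 1920 and 1975 CPM on D28, and 342 and 520 CPM on D45. ISG15 stood at 7.57 and 5.76 CPM on D11, and IFI6 at 7.52 and 5.98 CPM. USP18, which removes ISG15 from proteins and damps the response, went from 220 and 295 UMIs on D11 to 1978 and 2247 by D28, then to 195 and 333 by D45. IFI44 was counted 36 and 27 times on D11, 2684 and 4052 times on D28 and 411 and 905 times at D45. HERC5, the ligase that joins ISG15 to proteins, did not follow this order, with 19.02 and 23.4 CPM at D11, overlapping the 17.5 and 29.0 CPM of D28, and 5.27 and 6.55 CPM at D45. The MHC class II genes of the pig, SLA-DQB1, SLA-DMA and SLA-DMB, were highest on D11 and lower on each later day, a fall that passed between D28 and D45. SLA-DQB1 was counted 7658 and 12069 times on D11, 1706 and 1213 times on D28 and 122 and 161 times at D45. The floor plate list, in contrast to the interferon list, was highest on D11, with a summed level of 2491 and 2411 CPM, against 1160 and 1629 CPM on D28 and 350 and 528 CPM on D45.

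Further oligodendrocyte genes outside the lists, also chosen after their values were seen, passed as rises, among them PLLP (2.62 and 3.89 against 16.97 and 12.98 CPM), TNR (23.7 and 32.7 against 147 and 107 CPM) and ZNF488 (0.206 and 0.920 against 12.7 and 9.19 CPM). Collagen IV chains COL4A3 and COL4A4 and the laminin chain LAMB1, proteins of basement membranes, rose as well, LAMB1 from 15.8 and 13.5 CPM to 54.7 and 90.2 CPM. SLCO1C1, a transporter of thyroid hormone found in astrocytes, rose from 18.1 and 44.0 CPM to 286 and 325 CPM. TYRP1, a pigment-cell enzyme, rose with DCT, from 1.72 and 0.857 CPM to 20.1 and 10.3 CPM.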
